A study of Homo sapiens with 6 samples.

Results

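The genes described here are 42 genes of DNA replication and the S phase of the cell cycle, taken by their symbols from the 20522 genes and loci listed for each library. ATAD2, a chromatin protein named by the study, was included among them. All 42 passed the filter on low counts, out of 13109 genes tested. The libraries were mRNA-seq of K1, an established human line derived from papillary thyroid carcinoma, which was transfected with a negative control siRNA (NC, 3 libraries) or with an siRNA against NEAT1_2, the long isoform of the nuclear non-coding RNA NEAT1 (si-NEAT1_2, 3 libraries). Both groups therefore shared the cell line and the transfection, and no untransfected K1 cells were analysed here. Nothing in the labels says that the libraries came from separate cultures, so the p-values measure the spread between these libraries, which may be technical. A further table gave 1 value per group and no replicates.

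DNA replication starts at origins that are licensed in G1, when CDC6 and CDT1 load the ring of MCM proteins onto DNA. On entry into S phase, cyclin E and its kinase help to bring about the firing of these origins. CDC45 and the GINS proteins turn the MCM ring into an active helicase. Polymerases, the clamp PCNA and its loaders, enzymes that make nucleotides, and proteins that protect the fork and package the new DNA then work together. Many of their genes are transcribed at the same time in proliferating cells under the E2F transcription factors.

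The E2F word was searched in the promoters of the members, since it is the element that these genes are known to share. RefSeq promoters (GRCh38.p14, 250 bases before to 50 bases after the start) were found for 34 of the 42 genes, and not for MCM4, MCM5, POLD3, DSCC1, RPA2, ATAD2, CCNE2 and E2F8. The words TTTCCCGC, TTTCGCGC, TTTGCCGC and TTTGGCGC were counted on both strands. A word can share bases with its own reverse complement, as in the promoter of MCM2, or with that of another word, as in the promoter of MCM6. At least 1 of the words was present in 19 of the 34 promoters (55.9%), against 908 of all 27305 promoters of the same length (3.33%). Among the other replication genes described below, 12 of 48 promoters held a word (25%), and among the mitosis and G2/M genes 3 of 25 (12%). The windows below are from members at both ends of the range of fold changes, with PCNA as the most abundant member, and hold a word between 5 and 148 bases before the start of transcription. Capitals mark the word or its reverse complement, and each window is read along the strand of its gene.
CLSPN, chr1:35769966-35769993, minus strand, word starting 5 bases before the start: ctctggctggGCGGGAAAgcaagaacag
POLA1, chrX:24693771-24693798, plus strand, 137 bases before: tcatcacaggGCGCCAAAcgcgcgtccg
MCM6, chr2:135876574-135876601, minus strand, 148 bases before: tttgcatttgGCGCGAAAtccctttccg
PCNA, chr20:5126664-5126691, minus strand, 59 bases before: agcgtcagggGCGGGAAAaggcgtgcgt
E2F1, chr20:33686388-33686415, minus strand, 20 bases before: gcaaaaaggaTTTGGCGCgtaaaagtgg
CDT1, chr16:88803744-88803771, plus strand, 35 bases before: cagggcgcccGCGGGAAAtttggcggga

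Library totals were between 22798631 and 27066025 expected counts. The level of NEAT1 itself was not analysed here. Knockdown is therefore not measured, and samples are grouped as labelled. The thyroid factor PAX8 was at 113 to 169 FPKM (fragments scaled by transcript length and library size) and the keratins KRT7, KRT8 and KRT18 were at 391 FPKM or more in all 6 libraries. The thyroid genes NKX2-1, TSHR and SLC5A5 had at most 9 counts in any library, and the epithelial markers EPCAM, KRT19 and CDH1 at most 73, 25 and 29 counts. The 8 blood, vessel and stroma markers summed to between 1.62 and 3.25 FPKM. A gene was called where edgeR's quasi-likelihood test gave a Benjamini-Hochberg adjusted p under 0.05 and the change was 2-fold or more. By this rule 0 genes were higher and 0 lower in si-NEAT1_2, while 1469 and 1696 genes had an unadjusted p under 0.05. Without si-NEAT1_2 replicate 1, 32 genes were called higher and 184 lower, and none of them was among the 42.

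To compare replication genes between the groups, the 42 members were counted in this fit and in a second fit, in which the trend of each library with GC content and transcript length was removed (12581 genes with a GC value, all 42 members included). In the uncorrected fit the members were evenly split, since 21 had a negative and 21 a positive log2 fold change in si-NEAT1_2 against NC (49.1% of all genes were negative), from -0.59 for CCNE2 to 0.46 for CDT1, with a median of -0.01 (0.01 over all genes tested). A call was made for 0 of the 42 members in either fit (over all genes, 0% in either direction without the correction, and 0.00795% higher and 0.0238% lower with it), and the lowest adjusted p of any member from edgeR's quasi-likelihood test was 0.17 (0.2 after the correction). The same count was 0 with DESeq2 and with limma. Before adjustment, CCNE2, ATAD2, CLSPN, POLA1, EXO1 and MCM6 were lower at p under 0.05, which is 14.3% of the members against 12.9% of all genes, and CDT1 was higher, which is 2.38% against 11.2%. Groups did not overlap for 8 members with lower values (19% of the members, 14.1% of all genes) and 3 with higher values (7.14%, 15.4%). Without TMM scaling, 26 members had a negative log2 fold change, while the median over all genes tested also fell, from 0.009 to -0.053. The even split depended on si-NEAT1_2 replicate 2, without which 29 members were negative and 13 positive.

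After the correction, 33 members had a negative and 9 a positive log2 fold change (78.6% of the members were negative, against 56.2% of all genes), and the differences were smaller, from -0.39 for CLSPN to 0.25 for GINS1, with a median of -0.08 (-0.03 over all genes). The split was 27 negative and 15 positive without NC replicate 2, and 28 and 14 without si-NEAT1_2 replicate 3. An unadjusted p under 0.05 with a lower value was seen for CLSPN, MCM6, RRM2, POLE, RFC4, UNG and TYMS (16.7% of the members, 9.66% of all genes) and with a higher value for GINS1 (2.38%, 6.98%). Groups did not overlap for 8 members with lower values (19%, 13.3% of all genes) and for GINS1 and DSCC1 with higher values (4.76%, 9.45%). CLSPN and MCM6 were the members under this p with and without the correction. The number of such lower members was 1 without NC replicate 2 in either fit, against 6 and 7 with all libraries. Without si-NEAT1_2 replicate 3 it was 3 in either fit, and without NC replicate 3 it was 4 in the corrected fit. The number of higher members was 4 without si-NEAT1_2 replicate 1 in the uncorrected fit. In the corrected fit it was 2 without NC replicate 1, and it was 0 when either of the other NC libraries or si-NEAT1_2 replicate 2 was omitted.

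**Figure D1:**
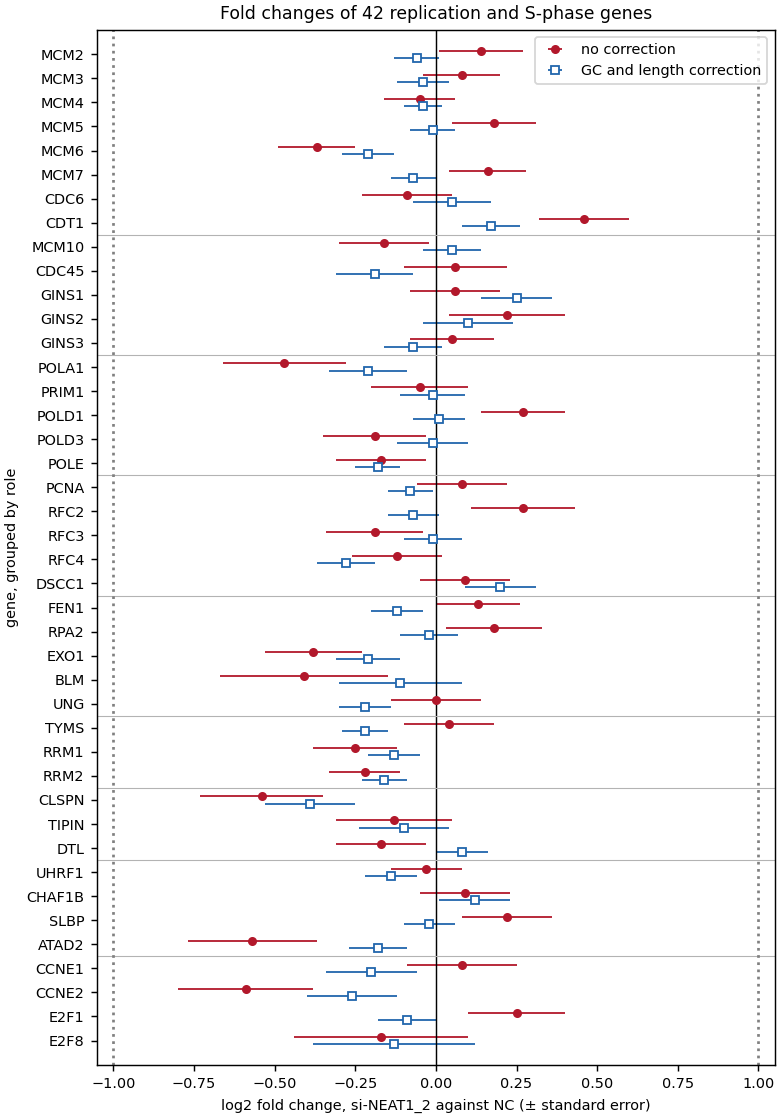
Log2 fold change of si-NEAT1_2 against NC (x axis, 3 libraries per group) for the 42 genes grouped by role (y axis). Bars are ± the standard error derived from the F statistic of edgeR's quasi-likelihood test. Filled circles are without and open squares with the GC and length correction. Dotted lines mark a fold change of 2, which 0 members reached, and the range narrows from -0.59 to 0.46 without the correction to -0.39 to 0.25 with it.

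The sign of the uncorrected difference followed the GC content of the transcript. Among the 21 members with a GC content of 36.9% to 45.9%, 18 were lower in si-NEAT1_2, with a median log2 fold change of -0.19. Among the 21 members with a GC content of 48.1% to 65%, 3 were lower, with a median of 0.13. After the correction, 16 and 17 members were lower in these groups of 21, with medians of -0.11 and -0.07. As a description across genes, which are not independent replicates and share the 6 libraries, Spearman's rho between the log2 fold change and GC content was 0.72 over the 42 members and 0.65 over all 12581 genes. The corresponding values for transcript length were -0.47 and -0.53, and all 4 lay between -0.02 and 0.05 after the correction. The members thus followed the trend of all genes in these libraries. The correction removes any difference between the groups that follows GC content or length, whatever its origin, and the part of either in these results cannot be told apart.

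**Figure D2:**
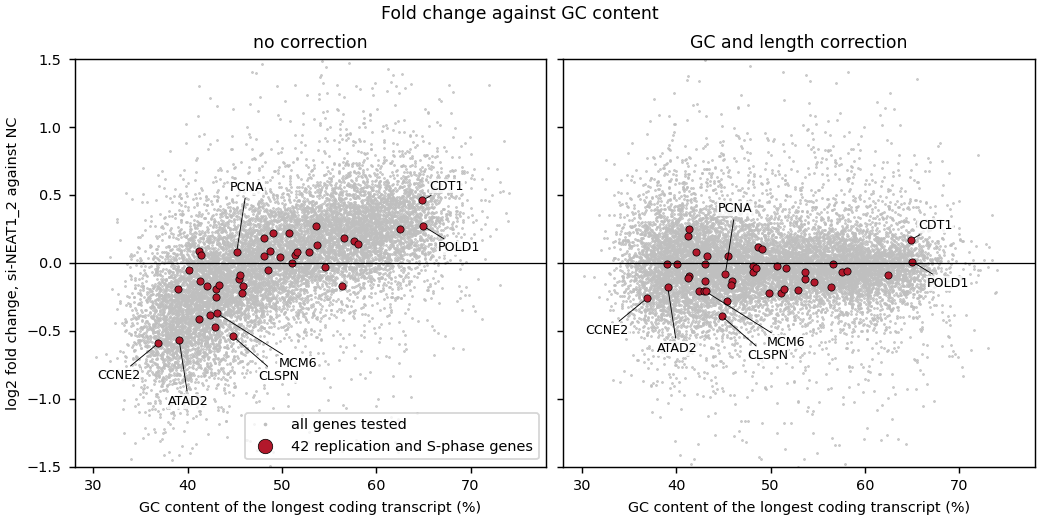
Log2 fold change of si-NEAT1_2 against NC (y axis) by GC content in percent of the longest coding transcript (x axis), for all genes tested (grey points) and the 42 members (red circles), without (left) and with (right) the GC and length correction. Genes outside the range of the y axis are not drawn. The members rise with GC content on the left (rho 0.72) and lie flat on the right (rho 0.05).

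The libraries differed in this trend within the groups as well. The log2 deviation from the mean of each gene had a Spearman's rho with GC content of -0.259, -0.664 and -0.354 in NC replicates 1 to 3 and of -0.151, 0.521 and 0.621 in si-NEAT1_2 replicates 1 to 3, as a description over all genes. Accordingly, the 21 members of lower GC content had median deviations of 0.03, 0.28 and 0.05 in NC and -0.01, -0.10 and -0.19 in si-NEAT1_2. NC replicate 2 was highest and si-NEAT1_2 replicates 2 and 3 lowest. The 21 members of higher GC content had medians of -0.03, -0.10 and -0.07 in NC and -0.06, 0.25 and 0.02 in si-NEAT1_2, where si-NEAT1_2 replicate 2 alone stood well above the others. After the correction, the medians over all 42 members were 0.02, 0.12 and -0.01 in NC and -0.04, -0.01 and -0.07 in si-NEAT1_2, so that every si-NEAT1_2 library was at or below every NC library and NC replicate 2 lay apart from the rest.

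**Figure D3:**
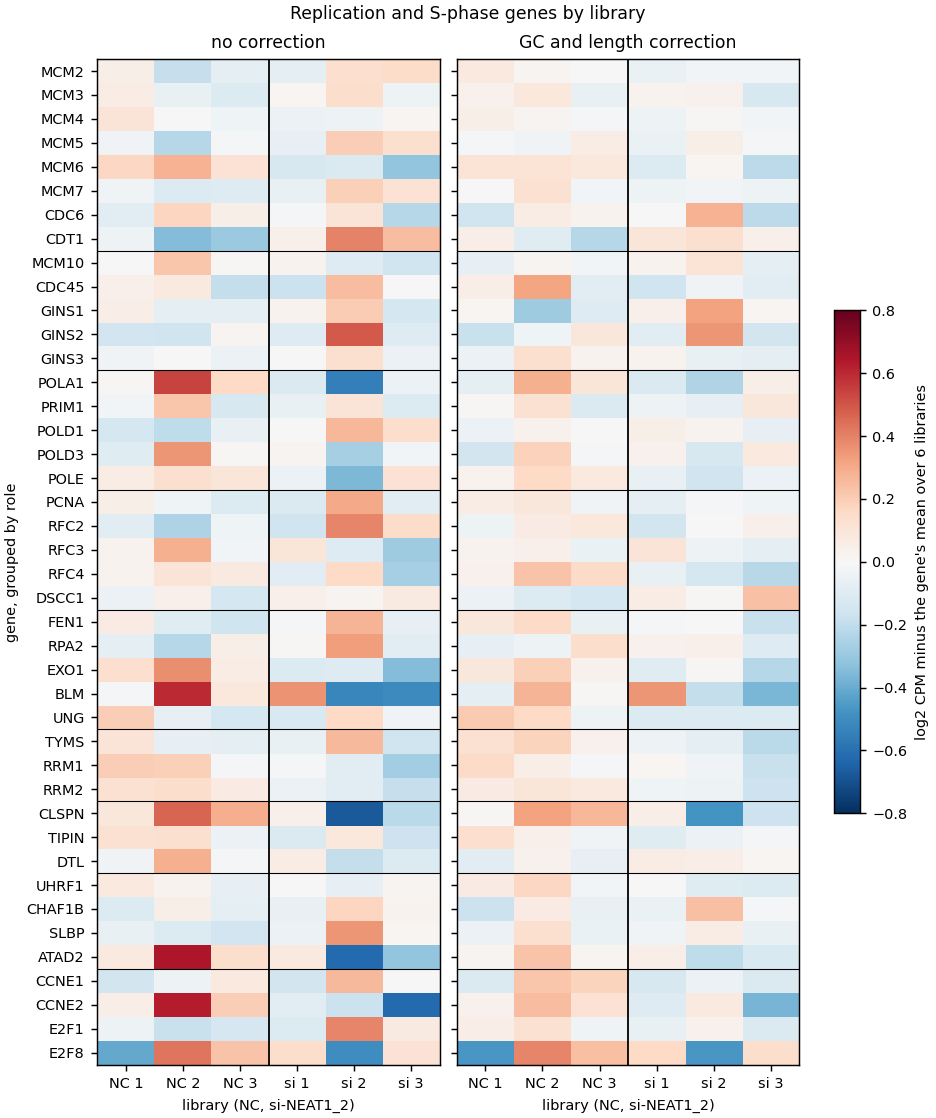
Log2 CPM of each of the 42 genes (y axis, grouped by role) in each library (x axis, NC and si-NEAT1_2 replicates 1 to 3) minus the mean of the gene over the 6 libraries, without (left) and with (right) the GC and length correction. The strongest colours lie in NC replicate 2 and si-NEAT1_2 replicate 2 on the left, and fade on the right, where the median of the members is 0.12 in NC replicate 2 and -0.01 in si-NEAT1_2 replicate 2.

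Levels are given below as CPM, the counts scaled to the library total after TMM scaling and with a prior count of 2, for NC replicates 1 to 3 and then si-NEAT1_2 replicates 1 to 3, followed by the log2 fold change ± its standard error (SE, n = 3 per group). Every adjusted p is the Benjamini-Hochberg value over all genes tested, from the quasi-likelihood test of edgeR.

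The 8 origin licensing genes had log2 fold changes from -0.37 to 0.46, with 3 lower and 5 higher. MCM6 (ENSG00000076003, chromosome 2, 135839626 to 135876426, minus strand), a subunit of the MCM helicase, was at 109, 118 and 105 CPM in NC and at 88.7, 89.6 and 78.1 CPM in si-NEAT1_2. All 3 si-NEAT1_2 libraries lay below all 3 NC libraries, and the log2 fold change was -0.37 ± 0.12 (adjusted p = 0.17). The groups of MCM6 also did not overlap after the correction, with 105, 105 and 103 against 89.9, 98.1 and 84.1 CPM and a log2 fold change of -0.21 ± 0.08 (adjusted p = 0.236). The other 5 subunits had log2 fold changes between -0.05 and 0.18, and between -0.07 and -0.01 after the correction. MCM4 was at 316, 295 and 288 against 285, 287 and 298 CPM, with a log2 fold change of -0.05 ± 0.11 (adjusted p = 0.822) and -0.04 after the correction. MCM7 was at 176, 166 and 167 against 172, 205 and 194 CPM (0.16 ± 0.12, adjusted p = 0.397), and at -0.07 after the correction. MCM2, MCM3 and MCM5 had log2 fold changes of 0.14, 0.08 and 0.18, which became -0.06, -0.04 and -0.01. After the correction the groups of MCM2 did not overlap either, at 193, 185 and 182 against 176, 180 and 180 CPM (adjusted p = 0.64). The products of these genes form a single ring, and the difference between MCM6 and the other subunits was not tested.

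CDT1 (ENSG00000167513, chromosome 16, 88803213 to 88809258, plus strand), the loading factor that is destroyed in S phase, stood at the opposite end. It was at 57.2, 46.3 and 48 CPM in NC and at 60.5, 77.5 and 69.7 CPM in si-NEAT1_2. The groups did not overlap, and the log2 fold change of 0.46 ± 0.14 (adjusted p = 0.17) was the highest of the 42. After the correction the values were 61.4, 55.3 and 50.5 against 63.2, 64.7 and 60.7 CPM, the groups overlapped, and the log2 fold change was 0.17 ± 0.09 (adjusted p = 0.35). The transcript of CDT1, with a GC content of 64.9%, was among the most GC-rich of the members. CDC6, which loads the MCM ring together with CDT1, had a log2 fold change of -0.09 ± 0.14, and 0.05 after the correction.

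The 5 origin firing genes differed little between the groups, with log2 fold changes from -0.16 to 0.22 and medians of 0.06 and, after the correction, 0.05. CDC45, the helicase cofactor, was at 30, 30.8 and 25.6 CPM in NC and at 25.9, 34.7 and 29.2 CPM in si-NEAT1_2 (0.06 ± 0.16, adjusted p = 0.843), and at -0.19 after the correction. GINS3, a subunit of the GINS complex, was at 29.7, 30.3 and 29.3 against 30.3, 33.1 and 29.4 CPM (0.05 ± 0.13, adjusted p = 0.812), and at -0.07 after the correction. The sign differed between the fits for both genes, and their groups overlapped in both fits. GINS1 was the member with the highest corrected log2 fold change, 0.25 ± 0.11 (adjusted p = 0.296), with corrected levels of 40.9, 33.3 and 37.7 against 41.6, 50.6 and 40.9 CPM. Its partner GINS2 had a log2 fold change of 0.22 ± 0.18, and si-NEAT1_2 replicate 2, at 52 CPM, was the 1 library above 37.6 CPM. MCM10, which joins helicase and polymerase, had a log2 fold change of -0.16 ± 0.14, and 0.05 after the correction.

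Of the 5 genes for polymerases and primase, 4 were lower and 1 was higher, with a median log2 fold change of -0.17, and of -0.01 after the correction. POLD1, the catalytic subunit of polymerase delta, was at 58.4, 56 and 61.9 CPM in NC and at 64.3, 77.5 and 71.2 CPM in si-NEAT1_2. Its groups did not overlap, with a log2 fold change of 0.27 ± 0.13 (adjusted p = 0.214), but after the correction it was 0.01 ± 0.08. PRIM1, the catalytic primase subunit, was at 25.4, 30.1 and 23.6 against 24.8, 27.7 and 23.9 CPM (-0.05 ± 0.15, adjusted p = 0.859). POLA1, the polymerase that extends the primers, was at 28.2, 40.9 and 31.4 CPM in NC and at 25.9, 19.2 and 27.2 CPM in si-NEAT1_2. The groups of POLA1 did not overlap without the correction (-0.47 ± 0.19, adjusted p = 0.179) and overlapped with it (-0.21 ± 0.12, adjusted p = 0.393). POLE, the leading-strand polymerase, had the reverse pattern. It overlapped without the correction (-0.17 ± 0.14) and not with it, at 115, 126 and 119 against 108, 101 and 109 CPM (-0.18 ± 0.07, adjusted p = 0.271). POLD3 had a log2 fold change of -0.19 ± 0.16, and -0.01 after the correction.

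PCNA, the sliding clamp, was the most abundant member per length, with a mean of 240 FPKM over the 6 libraries. It was at 333, 314 and 299 CPM in NC and at 298, 398 and 302 CPM in si-NEAT1_2, where replicate 2 was the highest of the 6 libraries and the others lay within the NC range or next to it. The log2 fold change was 0.08 ± 0.14 (adjusted p = 0.746), and -0.08 ± 0.07 after the correction. RFC2, a subunit of the clamp loader, was at 59.1, 52.9 and 61.3 against 56.2, 82.6 and 69.5 CPM (0.27 ± 0.16, adjusted p = 0.293), and at -0.07 after the correction. RFC4, from the same complex, had the lowest corrected p of the members, with 39.9, 45.5 and 43.3 against 37.3, 35.3 and 33.4 CPM and a log2 fold change of -0.28 ± 0.09 (adjusted p = 0.2). The subunits of the loader thus differed in sign, with -0.19 for RFC3, and after the correction RFC2, RFC3 and RFC4 were at -0.07, -0.01 and -0.28. DSCC1, of the alternative loader that serves sister chromatid cohesion, was at 0.09 ± 0.14, and at 0.20 ± 0.11 after the correction.

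The 5 genes of strand processing and repair had a median log2 fold change of 0.00, and of -0.12 after the correction, when all 5 were negative. FEN1, the nuclease that trims Okazaki fragments, was at 115, 103 and 98.8 CPM in NC and at 109, 133 and 105 CPM in si-NEAT1_2 (0.13 ± 0.13, adjusted p = 0.534), and at -0.12 after the correction. UNG, the glycosylase that removes uracil from DNA, was at 83.8, 70 and 66.5 against 67.3, 81.8 and 71.7 CPM (adjusted p = 0.993). UNG separated the groups only after the correction, at 84.8, 82.1 and 71.4 against 68.2 CPM in each si-NEAT1_2 library (-0.22 ± 0.08, adjusted p = 0.242). EXO1, a repair exonuclease, was at 27.1, 32 and 25.7 CPM in NC and at 22.9, 23 and 19.4 CPM in si-NEAT1_2, without overlap (-0.38 ± 0.15, adjusted p = 0.179), and again did not overlap after the correction (-0.21 ± 0.10, adjusted p = 0.344). BLM, a helicase for recombination intermediates, varied widely within the groups, from 8.14 to 15 CPM in si-NEAT1_2 (-0.41 ± 0.26). RPA2, of the complex that coats single-stranded DNA, was at 0.18 ± 0.15, and at -0.02 after the correction.

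The 3 genes of nucleotide supply were those for the reductase that makes deoxynucleotides and for thymidylate synthase, and their median log2 fold change was -0.22, and -0.16 after the correction. RRM2, the regulated reductase subunit, was at 263, 267 and 254 CPM in NC and at 234, 227 and 213 CPM in si-NEAT1_2. The groups did not overlap in either fit, with log2 fold changes of -0.22 ± 0.11 (adjusted p = 0.247) and -0.16 ± 0.07 (adjusted p = 0.274). RRM1, the other subunit, was at 209, 208 and 181 against 181, 171 and 150 CPM (-0.25 ± 0.13, adjusted p = 0.234), and at -0.13 after the correction. The 2 subunits of the reductase thus had lower values of about the same size. TYMS, thymidylate synthase, was at 237, 211 and 210 against 212, 265 and 198 CPM (0.04 ± 0.14, adjusted p = 0.88), and at 241, 251 and 227 against 215, 210 and 191 CPM after the correction (-0.22 ± 0.07, adjusted p = 0.208).

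The largest corrected difference was that of CLSPN (ENSG00000092853, chromosome 1, 35720218 to 35769967, minus strand), which encodes claspin, an adaptor that links a stalled fork to the checkpoint kinase CHK1. CLSPN was at 26.9, 34.9 and 30.9 CPM in NC and at 26, 15.9 and 21.8 CPM in si-NEAT1_2, with a log2 fold change of -0.54 ± 0.19 (adjusted p = 0.171). NC replicate 1 and si-NEAT1_2 replicate 1 lay next to each other, and their order was reversed by the correction, at 25.6 and 26.3 CPM, so that the groups then overlapped (-0.39 ± 0.14, adjusted p = 0.225). TIPIN, of the fork protection complex, was at 9.42, 9.46 and 8.38 against 8.01, 9.19 and 7.72 CPM (-0.13 ± 0.18, adjusted p = 0.658). DTL, which targets CDT1 for degradation at the fork, was at 57.8, 72 and 58.6 against 61.4, 51.7 and 54.7 CPM (-0.17 ± 0.14, adjusted p = 0.454), and at 0.08 after the correction. The groups of TIPIN and DTL overlapped in both fits.

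Among the 4 chromatin and histone genes, ATAD2 (ENSG00000156802, chromosome 8, 123319850 to 123416350, minus strand), a bromodomain ATPase bound to newly replicated chromatin, had the widest spread. ATAD2 was at 94.9, 141 and 99.2 CPM in NC and at 94.9, 58.5 and 72.3 CPM in si-NEAT1_2. NC replicate 1 and si-NEAT1_2 replicate 1 had the same value at this precision, and the highest and lowest values came from replicate 2 of either group. The log2 fold change was -0.57 ± 0.20 (adjusted p = 0.17), and it was -0.78 (adjusted p = 0.0495) once si-NEAT1_2 replicate 1 was left out, still short of the 2-fold change that a call needs. Without NC replicate 2 it was -0.37, and -0.11 with the correction as well. ATAD2 was the 1 member with an adjusted p under 0.05 in any of 26 settings. After the correction it was at 91.8, 106 and 91.8 against 93.7, 78.4 and 83.2 CPM, the groups overlapped, and the log2 fold change was -0.18 ± 0.09 (adjusted p = 0.348). Its transcript has a GC content of 39.1% and a length of 5565 bases.

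UHRF1, which guides DNA methylation to new strands, was at 151, 146 and 137 CPM in NC and at 143, 137 and 145 CPM in si-NEAT1_2 (-0.03 ± 0.11, adjusted p = 0.894). SLBP, the stem-loop binding protein of histone mRNAs, was at 94.5, 91.4 and 88.7 against 95.6, 126 and 99.5 CPM. The groups of SLBP did not overlap (0.22 ± 0.14, adjusted p = 0.305), and the log2 fold change was -0.02 after the correction. CHAF1B, of the histone chaperone CAF-1, was at 0.09 ± 0.14, and at 0.12 after the correction.

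The regulators of S-phase entry gave the lowest uncorrected value of all members. CCNE2 (ENSG00000175305, chromosome 8, 94879770 to 94896678, minus strand), cyclin E2, was at 14, 20.9 and 15.5 CPM in NC and at 12.7, 12 and 8.76 CPM in si-NEAT1_2. The groups did not overlap (-0.59 ± 0.21, adjusted p = 0.17), whereas after the correction they did (-0.26 ± 0.14, adjusted p = 0.373). Its transcript had the lowest GC content of the members, 36.9%. CCNE1, cyclin E1, was at 10.8, 11.6 and 12.6 against 10.8, 14.3 and 11.9 CPM (0.08 ± 0.17, adjusted p = 0.789), and at -0.20 after the correction. E2F1, an activating E2F factor, was at 39.8, 36.1 and 37.3 against 37.9, 53.5 and 43 CPM (0.25 ± 0.15, adjusted p = 0.315), and at -0.09 after the correction. E2F8, a repressing E2F factor and the least abundant member per length (mean 2.05 FPKM), was at -0.17 ± 0.27, and at -0.13 after the correction. The 19 members with an E2F word in the promoter window had a median log2 fold change of 0.04, and of -0.07 after the correction, and the 15 without one had medians of 0.00 and -0.11.

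Some members share exonic bases with another listed gene. Of the exonic bases of TYMS, 39.1% overlapped ENOSF1 on the other strand, and of those of CCNE2, 37% overlapped INTS8. For PRIM1 the share was 21.6%, and for MCM7, FEN1 and POLD1 it was 8.94%, 8.68% and 8.64%. Whether the counting used the strand is not given in the sources used here, so the values of these genes are less certain. In bulk samples, fewer cells in S phase and less RNA per cell cannot be told apart.

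Another 56 replication genes outside the 42 were counted in the same fits. Of these, 36 were lower (64.3%, against 49.1% of all genes) and 20 higher, with a median log2 fold change of -0.13, and 0 were called. An unadjusted p under 0.05 was seen for 13 with lower values (23.2%, against 12.9% of all genes) and 3 with higher values (5.36%, against 11.2%). The extremes were BRCA2 (-1.08 ± 0.37) and ATAD5 (-0.94 ± 0.37) below and POLD4 (0.61 ± 0.19) and POLE4 (0.52 ± 0.19) above. BRCA2, a DNA repair gene, was at 9.38, 17.5 and 15.4 CPM in NC and at 10.4, 3.1 and 6.64 CPM in si-NEAT1_2 (adjusted p = 0.17). POLD4, the small subunit of polymerase delta, was at 21.6, 18.5 and 20.2 against 25.9, 40.3 and 25.8 CPM (adjusted p = 0.17). After the correction, 41 of the 56 were negative (73.2%, against 56.2% of all genes), the median was -0.08 and the range was -0.60 to 0.19. An unadjusted p under 0.05 was then seen for 6 with lower values (10.7%, against 9.66%) and 1 with a higher value (1.79%, against 6.98%).

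The group table was compared next. Its si-NEAT1_2 value was below its NC value for 35 of the 42 members (83.3%, against 64.6% of the 11055 genes with at least 1 FPKM in either column), and the median ratio of si-NEAT1_2 to NC was 0.761, against 0.859 over those genes. The ratio was at or below 0.5 for MCM6 (0.472), CDT1 (0.45), PRIM1 (0.46) and E2F8 (0.153), which is 9.52% of the members against 14% of all genes, and reached 2 for 0 members (3.43% of all genes). Since the table holds 1 value per group, these ratios carry no error and no test.

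The values of single members differed between the group table and the libraries. The direction of the group table ratio was that of the uncorrected log2 fold change in the libraries for 20 of the 42 members. CDT1, at 28.7 FPKM for NC and 12.9 FPKM for si-NEAT1_2 in the table, had the highest log2 fold change of the members in the libraries, where it ranged from 15.7 to 23.8 FPKM. CCNE2, at 4.61 and 6.85 FPKM in the table, had the lowest, and the ratios above 1 were those of CDC6, MCM10, GINS3, RFC2, CLSPN, CCNE1 and CCNE2. CLSPN, at 2.19 and 2.51 FPKM, was below its range in the libraries of 3.45 to 8.33 FPKM in both columns. ATAD2 was at 12.7 and 12.2 FPKM, a ratio of 0.962, within the 9.71 to 26.1 FPKM of the libraries. MCM6 was lower in the si-NEAT1_2 column (18.1 and 8.53 FPKM) as it was in the si-NEAT1_2 libraries, and both columns lay below its 20.8 to 32.5 FPKM in the libraries.

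For most members the columns of the group table lay outside the range of all 6 libraries. Both columns were below every library for 28 members (66.7%, against 33.3% of the 9906 genes with at least 1 FPKM in every library), and above every library for MCM5, MCM7, POLD1 and E2F1 (9.52%, against 17.7%). PCNA was at 87.1 and 56.5 FPKM in the table and at 224 to 273 FPKM in the libraries, and TYMS was at 59.6 and 41.6 FPKM against 118 to 148 FPKM. A mean of the 3 libraries of a group cannot lie outside their range, so for these members the NC column is not the mean of the deposited NC values. How the table was made is not given in the sources used here, and its total counts, 17678761 for NC and 19579897 for si-NEAT1_2, were below those of every library.

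**Figure D4:**
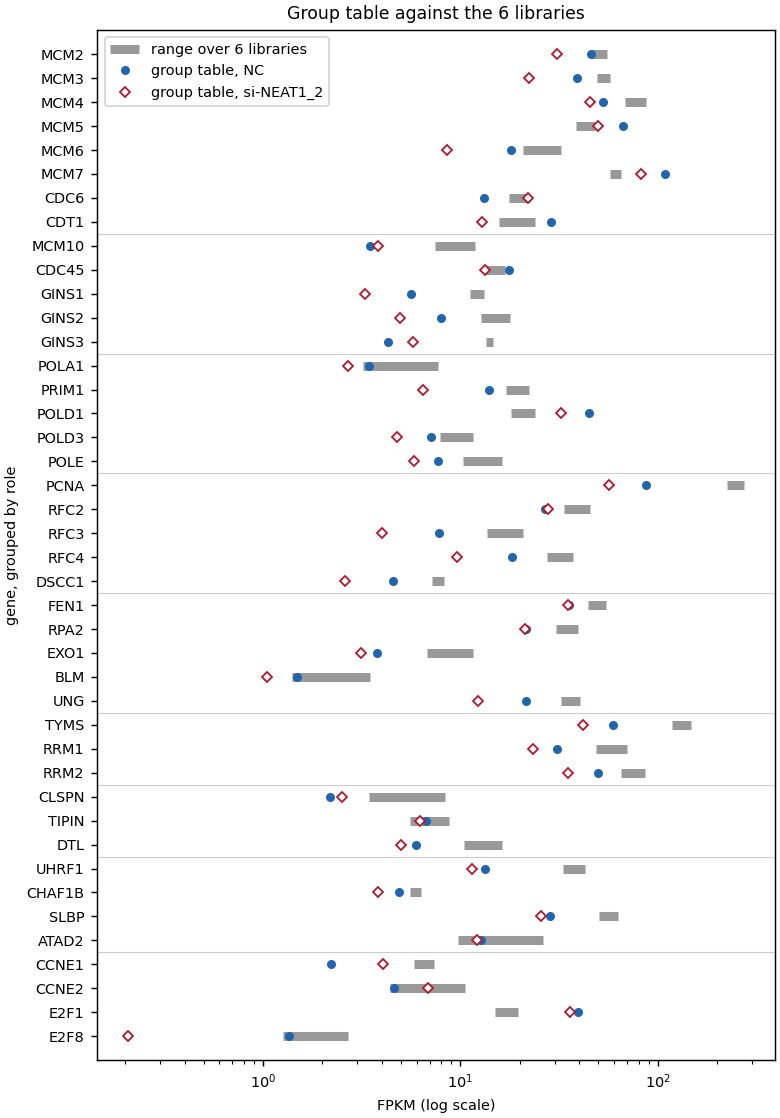
FPKM (x axis, log scale) of the 42 genes grouped by role (y axis) in the group table, for NC (filled circles) and si-NEAT1_2 (open diamonds), with grey bars for the range over the 6 libraries. Both symbols lie to the left of the bar for 28 genes, PCNA at 87.1 and 56.5 FPKM among them, and to the right of it for MCM5, MCM7, POLD1 and E2F1.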

How the data were processed

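mRNA-seq libraries of K1 cells (3 NC, 3 si-NEAT1_2) were grouped by the GEO labels. According to the methods, reads were mapped with TopHat2 and quantified with RSEM, whereas the submitters' processing notes list fastp 0.18.0, Bowtie2 2.2.8, HISAT2, StringTie 1.3.1 and GRCh38. Which of these made the deposited values is not settled by these sources. The authors deposited expected counts per gene and library, not normalized. The FPKM values, per library and per group, are also those the authors deposited, scaled for gene length and library size.

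In R 4.3.3 with edgeR 4.0.16, expected counts were rounded, low genes were removed with filterByExpr, libraries were scaled by TMM, and groups were compared by the quasi-likelihood test. Calls needed a Benjamini-Hochberg adjusted p under 0.05 and at least a 2-fold change. Standard errors were derived as the absolute log2 fold change divided by the square root of the F statistic of the quasi-likelihood test. Deviations of each library from the gene mean were fitted with splines (5 degrees of freedom) of GC content and transcript length. Both were those of the longest coding transcript in GENCODE 29. The splines were fitted without group labels and entered as offsets in the corrected fit, which then compared the groups by the same test. Group table ratios were not tested.

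The members, lists and tests were chosen with earlier results of these data known. Values in every library were given for the 2 most abundant members of each role (mean FPKM), ATAD2, the 3 lowest and 3 highest log2 fold changes, and members with an unadjusted p under 0.05 in the same direction in both fits. MCM2, POLA1, POLE, RFC4, EXO1, RRM1, GINS1 and CCNG2 were added after their values were seen. Lists were described by counts and medians, their examples being their extremes.

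Alternatives were the normalization, the filter, DESeq2 1.42.0, and limma 3.58.1 on log2 FPKM with a pseudocount of 1 or 0.1. Others were a covariate that set the libraries of 1 label code against the rest, a replicate block, and the omission of each library.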

Additional observations from a re-analysis of the deposited data

How the results depend on the processing

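Over 25 alternatives to the uncorrected fit, 0 members were called. The sign of the log2 fold change was followed for the 23 members chosen by the rule above, not for those added later. MCM4, MCM6, CDT1, RRM2, CLSPN, TIPIN, ATAD2 and CCNE2 kept it in all 25 alternatives. Their sizes moved, from -0.78 to -0.05 for ATAD2, -0.72 to -0.15 for CCNE2, -0.72 to -0.19 for CLSPN, 0.10 to 0.54 for CDT1, -0.43 to -0.16 for MCM6, -0.30 to -0.12 for RRM2, -0.26 to -0.06 for TIPIN and -0.14 to -0.02 for MCM4. Having 3 libraries per group limits the precision, and the cause of the changes below was not tested.

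With the GC and length correction, 1 gene was called higher and 3 lower, and the signs were reversed for MCM7 (-0.07), CDC45 (-0.19), GINS3 (-0.07), PCNA (-0.08), RFC2 (-0.07), FEN1 (-0.12), UNG (-0.22), TYMS (-0.22), DTL (0.08), SLBP (-0.02), CCNE1 (-0.20) and E2F1 (-0.09). The medians of the other replication genes and the G1 list were -0.08 and -0.05. With the replicate block added to the correction these values were the same to 2 decimals, except CDC45 (-0.18), and 0 members were higher at an unadjusted p under 0.05. The replicate block alone gave 4 lower and 1 higher member at this p and changed no call. The methods of the study mention 3 pairs of NC or si-NEAT1_2 cells, and the groups share replicate numbers. Deviations of same-numbered libraries correlated at -0.282, -0.365 and -0.00797. These deviations, taken from the mean of each group, also carry the GC and length trends of each library. Taken from the mean of all 6 libraries, those trends ran in opposite directions in replicates 2 and 3 of the groups. Whether the libraries are paired therefore cannot be decided from these correlations.

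Without TMM, 1 gene was called lower, CDC45 and GINS3 were at -0.01, UNG at -0.06 and TYMS at -0.03, and the medians of the other replication genes and the G1 list were -0.20 and -0.04. Limma on log2(FPKM + 1) gave CDC45 at -0.0048, GINS3 at -0.01, UNG at -0.06, TYMS at -0.03, CCNE1 at -0.02 and the G1 list at -0.05. With a pseudocount of 0.1, CDC45 was at -0.01, the others were as with 1, and 1 gene was called lower. Without a filter 9 genes were called higher and 9 lower, and with DESeq2 15 and 45 (2289 genes had no adjusted p). At an unadjusted p under 0.05, 87 and 126 genes passed with a fold change of 2, and 1469 and 1696 with any. UNG, near 0, was at -0.0022 with RLE factors and DESeq2, -0.0009 without a filter and -0.0001 with at least 10 counts in every library. It was at -0.01 with the covariate for 1 label code, where 3 members were lower at an unadjusted p under 0.05. The members' median in the group table was -0.35 (log2 ratio, pseudocount 1), and -0.39 with 0.1.

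Leaving out replicate 2 of both groups, the libraries of each group with the steepest length trend, was chosen after seeing the data. It gave 6 genes called higher and 4 lower, 3 lower members at an unadjusted p under 0.05, a median of the other replication genes of -0.05, CCNE1 at -0.05, CDC45 at -0.01, PCNA at -0.07, TYMS at -0.12, UHRF1 at 0.0019 and UNG at -0.11. With the correction as well, it gave 3 and 3 genes, 0 higher members, a median of -0.06, CCNE1 at -0.16, CDC45 at -0.10, DTL at 0.12, E2F1 at -0.09, FEN1 at -0.10, GINS3 at -0.01, MCM7 at -0.03, PCNA at -0.07, PRIM1 at 0.08, RFC2 at -0.07, TYMS at -0.20 and UNG at -0.19.

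Leaving out 1 library at a time, with and without the correction, gave 0 to 32 genes called higher and 0 to 184 lower, both highest without si-NEAT1_2 replicate 1. Members at an unadjusted p under 0.05 numbered 1 to 8 lower and 0 to 4 higher, and the members' median was -0.10 to 0.01. For the other replication genes the median was -0.20 to -0.06, and 0 to 3 of 56 were called. For the G2/M genes it was -0.26 to -0.09 (-0.09 without si-NEAT1_2 replicate 3 in the corrected fit), and 0 to 2 of 30 were called. For the G1 list it was -0.11 to 0.03, and 0 to 1 of 18 was called. Each of these highest counts came from the uncorrected fit without si-NEAT1_2 replicate 1. In that fit 32 genes were called higher and 184 lower, of 13284 tested. Log2 fold changes ranged from -0.10 to 0.22 for MCM7, -0.28 to 0.14 for CDC45, -0.13 to 0.09 for GINS3, -0.13 to 0.05 for PRIM1, -0.03 to 0.33 for POLD1, -0.12 to 0.15 for PCNA, -0.12 to 0.39 for RFC2, -0.18 to 0.20 for FEN1, -0.29 to 0.09 for UNG, -0.26 to 0.12 for TYMS, -0.25 to 0.12 for DTL, -0.06 to 0.29 for SLBP, -0.31 to 0.16 for CCNE1 and -0.14 to 0.35 for E2F1.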

Other observations

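Genes of mitosis and of G1 control, which act on either side of S phase, were described in the same way. Of 30 mitosis and G2/M genes, 18 were lower (60%, against 49.1% of all genes) and 12 higher in si-NEAT1_2. Their median log2 fold change was -0.20, with 0 calls by edgeR's quasi-likelihood test. An unadjusted p under 0.05 was seen for 12 with lower values (40%, against 12.9% of all genes). It was seen for 0 with higher values (0%, against 11.2%). The extremes were the kinetochore genes CENPE (-0.99 ± 0.41) and CENPF (-0.88 ± 0.28) below, and PLK1 (0.27 ± 0.13) and CDC20 (0.26 ± 0.14) above. CENPF was at 97.8, 208 and 135 CPM in NC and at 108, 54.2 and 77.8 CPM in si-NEAT1_2, with its highest and lowest values in replicate 2 of either group. After the GC and length correction, 25 of the 30 were lower (83.3%, against 56.2% of all genes), with a median of -0.14. Of the 30, 8 were lower at an unadjusted p under 0.05 (26.7%, against 9.66%). The CHR words TTTGAA and TTCGAA, of the element known from G2/M promoters, were found on either strand in 80% of the 25 G2/M promoters with a RefSeq window, in 5.88% of the 34 windows of the replication genes and in 16.6% of all 27305 promoters. The CCAAT word was found in 80%, 61.8% and 35.7% of them.

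Of 18 G1 cyclins, CDK inhibitors and pocket proteins, 8 were lower (44.4%, against 49.1% of all genes) and 10 higher. The median was 0.02, and -0.05 after the correction, and 0 were called. An unadjusted p under 0.05 was seen for 3 with lower values (16.7%, against 12.9% of all genes) and 4 with higher values (22.2%, against 11.2%), and after the correction for 2 (11.1%, against 9.66%) and 1 (5.56%, against 6.98%). CDK6, a G1 kinase, was at 90.3, 153 and 109 CPM in NC and at 86.6, 35.4 and 71 CPM in si-NEAT1_2 (-0.87 ± 0.29, adjusted p = 0.17), and at -0.39 after the correction. RB1, the pocket protein that holds E2F in check, was at 96.8, 148 and 109 against 93.5, 60.5 and 80.4 CPM (-0.59 ± 0.19), and at -0.19 after the correction. The inhibitors CDKN1C (0.89 ± 0.40) and CDKN2A (0.55 ± 0.16) had the highest uncorrected values, and were at 0.43 and 0.08 after the correction. CDKN1C was low, at 1.17, 1.31 and 1.71 CPM in NC and at 1.87, 3.99 and 1.72 CPM in si-NEAT1_2, with its highest value in replicate 2. After the correction the highest of the list was CCNG2, at 0.55 (adjusted p = 0.122), against 0.23 ± 0.18 without it.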
